A study of Mus musculus with 6 samples.

Results

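The Hox cluster genes were examined in 393P cells, an epithelial murine lung adenocarcinoma (LUAD) line, with and without ectopic ZEB1. Members were the features whose symbol is Hoxa, Hoxb, Hoxc or Hoxd followed by a paralogue number, and they numbered 39 of the 24214 features listed. They lay in 4 clusters, with 11 genes in Hoxa, 10 in Hoxb, 9 in Hoxc and 9 in Hoxd. The 6 RNA sequencing samples were 3 of 393P_vector cells, which carry the empty vector, and 3 of 393P_ZEB1 cells, which carry a ZEB1 expression vector. Both groups are transfectants of the same parental line, which the labels describe as C57BL/6 KP lung cancer cells, and were grown in the same serum-supplemented medium. The labels do not say whether the samples of a group were separate transfections, so p-values measure only the spread between these samples, which may be technical. Whether the 393P_ZEB1 line is 1 clone or a pool is also not given in the sources used here.

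Hox genes encode homeodomain transcription factors that give cells their position along the head-to-tail axis of the embryo. Within a cluster the genes stand in a row, from low paralogue numbers at the anterior end to high numbers at the posterior end, and genes with the same number in different clusters are paralogues. In the lung, anterior and central genes of the Hoxa and Hoxb clusters are the ones mainly used, and Hoxa5 is required for normal airway and alveolar formation. ZEB1 is a zinc finger and homeodomain repressor that drives epithelial-mesenchymal transition (EMT).

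Total counts per sample were between 54442450 and 79158012. Levels are given as CPM, that is, counts scaled by the TMM-normalized size of each library, and 3 counts, the smallest number treated as detected, stood for 0.0361 to 0.0561 CPM. Zeb1 itself had 48.9 to 54.9 CPM in the 393P_ZEB1 samples against 21.2 to 22.0 CPM in the 393P_vector samples, so the samples carried the difference their labels state. Counts on Zeb1 include any read of the vector that aligns to it. 393P_vector replicate 3 stood apart, with 7.80% and 8.60% of genes at least 2-fold away from replicates 1 and 2, against 1.59% to 2.15% for the pairs within a group that left it out. Counts on chromosome Y were 5929 to 10837 in the 393P_vector samples and 73 to 82 in the 393P_ZEB1 samples, so the groups also differed in this respect, and ZEB1 and other differences between the lines cannot be told apart. Of the markers of lung epithelium, Foxa2 was present in all samples, whereas Nkx2-1, Sftpa1, Sftpb, Sftpc and Scgb1a1 had at most 5 counts in any sample.

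The Hox genes did not move together. Members of Hoxa and Hoxc that passed the test were higher in 393P_ZEB1 cells, whereas those of Hoxb went both ways and included Hoxb9, which had the greatest change of the tested members and fell 22.0-fold. Of the 39 genes, 16 passed the filter on low counts and were tested by edgeR's quasi-likelihood test, and 7 of these rose and 4 fell at an adjusted p below 0.05. Among all 13892 genes tested, 18.3% rose, 19.3% fell and 37.6% did either, beside 68.8% of the tested Hox genes. Over all listed features, tested or not, 21.5% passed, beside 28.2% of the 39 Hox genes. For the same 11 Hox genes the 3 samples of one group lay entirely above the 3 of the other, and so did those of 52.8% of all genes tested. Hoxa7 and Hoxc9 passed the filter only through their level in 393P_ZEB1 cells and had to differ, so the count over tested members is a description. Over the tested Hox genes the median size of the log2 fold change was 1.15, beside 0.39 over all genes tested.

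By cluster, Hoxa had 7 tested genes, of which 3 rose and none fell, with a median log2 fold change of 0.39. Hoxb also had 7, of which 2 rose and 4 fell, with a median of -0.65. Hoxc had 2, both of which rose, with a median of 2.66, and no Hoxd gene passed the filter. These rises and medians include Hoxa7 and Hoxc9, which passed the filter only through 393P_ZEB1 cells and had to differ. The median log2 fold change over all genes tested was -0.02. The medians rest on few genes, and over the alternatives that of Hoxa ranged from 0.12 to 0.77, that of Hoxb from -0.92 to -0.34 and that of Hoxc from 1.15 to 3.02. The genes that entered differed between the alternatives. For Hoxc, 1.15 is over all 9 genes and 3.02 is the value of Hoxc6 alone. The chromosomes differed among themselves, and the medians of the other tested genes were -0.36 on chromosome 6 (Hoxa), 0.27 on chromosome 11 (Hoxb), -0.34 on chromosome 15 (Hoxc) and -0.05 on chromosome 2 (Hoxd). The rises in Hoxa and Hoxc went against the median of their chromosomes, where 10.1% and 11.9% of the other genes rose. The falls in Hoxb did so too, on a chromosome where 9.75% of the other genes fell. The 2 rises in Hoxb, however, went with the median of that chromosome, where 29.3% of the other genes rose. Whether the chromosomes had a part in these changes was not tested.

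**Figure D1:**
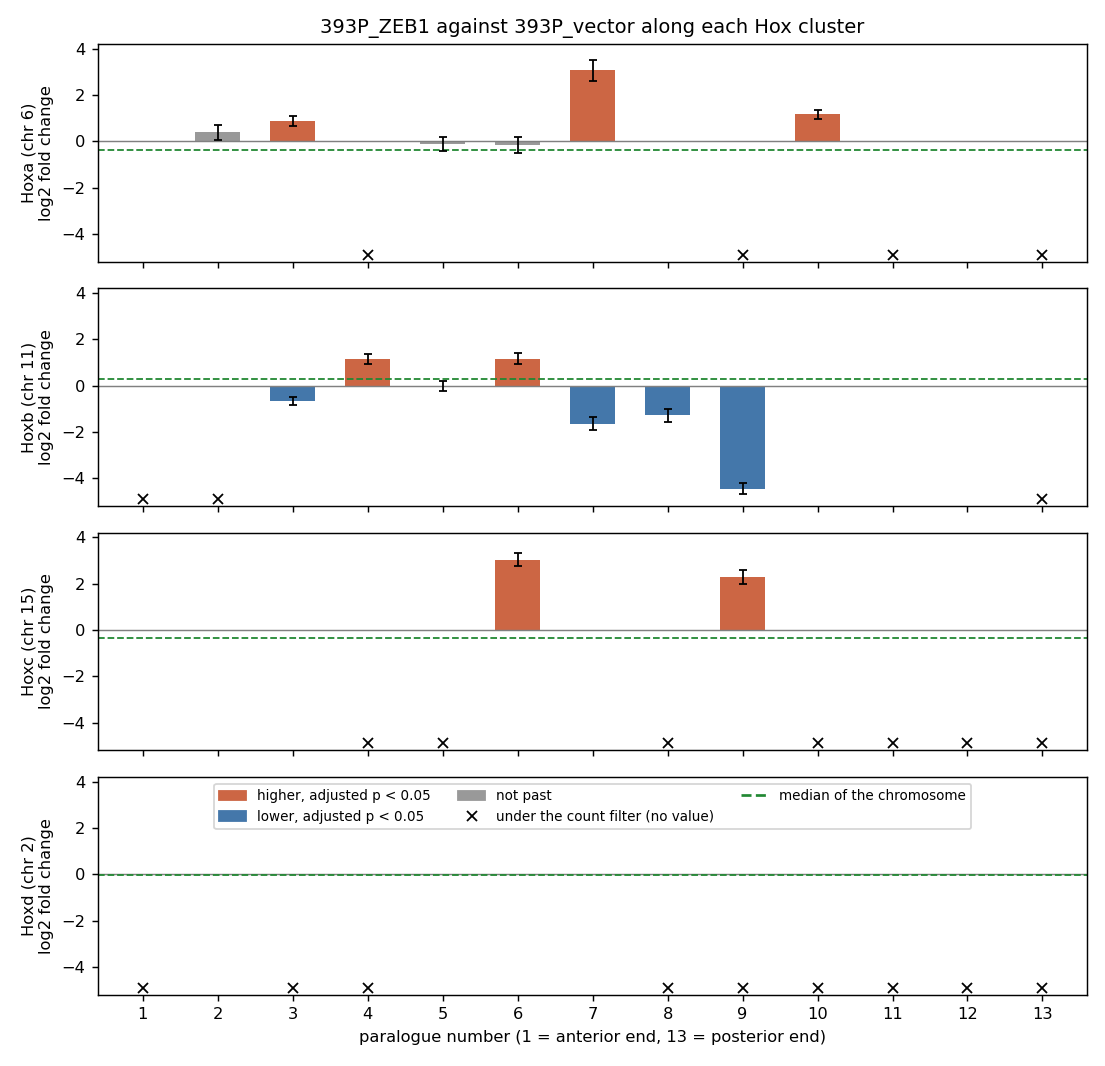
Log2 fold change of 393P_ZEB1 against 393P_vector cells (vertical axis) by paralogue number (horizontal axis) for each Hox cluster, with bars for the edgeR estimate, error bars for its standard error, crosses for genes under the filter and a dashed line for the median of the other genes of that chromosome. Hoxb9 reaches -4.46 at the posterior end of Hoxb, whereas every bar past the threshold in Hoxa and Hoxc points up. Among the latter, Hoxa7 and Hoxc9 passed the filter only through 393P_ZEB1 cells.

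By position, the paralogue groups 1 to 3 (anterior) held 4 tested genes, of which 1 rose and 1 fell. The groups 4 to 8 (central) held 9, of which 4 rose and 2 fell, and the groups 9 to 13 (posterior) held 3, of which 2 rose and 1 fell. Among all genes tested, 18.3% rose and 19.3% fell. The central rises include Hoxa7 and the posterior ones Hoxc9, which passed the filter only through 393P_ZEB1 cells, so these counts are a description. Within Hoxb, however, the direction changed along the row of tested genes. Hoxb3 fell, Hoxb4 rose, Hoxb5 did not pass the test and Hoxb6 rose, and the next 3 genes toward the posterior end, Hoxb7, Hoxb8 and Hoxb9, fell.

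The Hoxb cluster spans 173.9 kb of chromosome 11 (GRCm38, 96194361 to 96368253, plus strand) and supplied most of the Hox reads. Hoxb9, at 96271330 to 96276593, encodes a posterior-type homeodomain factor that has been linked to invasion and metastasis of lung and breast tumors. It was at 15.6, 17.5 and 20.8 CPM in 393P_vector replicates 1 to 3 and at 0.598, 1.03 and 0.819 CPM in 393P_ZEB1 replicates 1 to 3. Every 393P_vector sample was far above every 393P_ZEB1 sample, with raw counts of 884 to 1731 against 32 to 57. The log2 fold change, with its standard error (SE), was -4.46 (SE 0.24, edgeR adjusted p = 6.74e-06), which left 4.54% of the level in 393P_vector cells.

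Hoxb7, which stands next to Hoxb8 at 96286646 to 96290163 and has been studied as an inducer of EMT in breast cells, was at 5.23, 6.10 and 10.4 CPM in 393P_vector samples and at 2.43, 2.11 and 2.41 CPM in 393P_ZEB1 samples. The groups did not overlap, although 393P_vector replicate 3 was well above the other two. Hoxb7 fell by 1.65 on the log2 scale (SE 0.27, edgeR adjusted p = 0.00259). Hoxb8, a factor known for its part in myeloid progenitors, was at 0.989, 1.19 and 1.37 CPM in 393P_vector samples and 0.430, 0.378 and 0.655 CPM in 393P_ZEB1 samples. It lay lower in every 393P_ZEB1 sample, at raw counts of 21 to 40 against 56 to 114, and fell by 1.27 on the log2 scale (SE 0.28, edgeR adjusted p = 0.00956).

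Hoxb6, at 96299171 to 96301569, moved the other way. It was at 6.70, 7.84 and 4.37 CPM in 393P_vector samples and at 12.02, 13.99 and 16.02 CPM in 393P_ZEB1 samples. The lowest 393P_vector value was that of replicate 3, and even the highest was under every 393P_ZEB1 sample. Its log2 fold change was 1.16 (SE 0.23, edgeR adjusted p = 0.00639). Hoxb4, which is known to expand hematopoietic stem cells, was at 3.34, 3.52 and 2.65 CPM in 393P_vector samples and 8.21, 5.69 and 7.22 CPM in 393P_ZEB1 samples. These groups were also separate, with a log2 fold change of 1.15 (SE 0.20, edgeR adjusted p = 0.00302).

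Hoxb3, at the anterior side of Hoxb4, was at 9.26, 10.3 and 12.9 CPM in 393P_vector samples and 7.08, 7.42 and 6.16 CPM in 393P_ZEB1 samples. All 393P_ZEB1 values were lower, but the difference was the least of the 11 that passed, at -0.65 on the log2 scale (SE 0.17, edgeR adjusted p = 0.019). The call was lost when any single 393P_ZEB1 sample was left out, with adjusted p of 0.0612, 0.0533 and 0.0878 without replicate 1, 2 and 3 in that order. Hoxb5 was at 2.03, 1.90 and 1.53 CPM in 393P_vector samples and 2.04, 1.60 and 1.74 CPM in 393P_ZEB1 samples. The groups overlapped throughout, with a log2 fold change of -0.02 (SE 0.20, edgeR adjusted p = 0.949). The other 3 Hoxb genes were under the filter. Hoxb1 and Hoxb2 had 3 to 15 counts in any sample, and Hoxb13 had 1, 3 and 9 counts in 393P_vector samples and 0 in each 393P_ZEB1 sample, which is at least 3.71-fold lower when a floor of 3 counts is taken over the group (edgeR adjusted p = 0.042 when tested without the filter).

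Upstream sequence was compared for Hoxb4, which rose, and Hoxb8, which fell, because these are the only Hoxb genes past the threshold for which a window was at hand. The windows are the 250 bases before the RefSeq start on GRCm38.p6, at chr11:96318017-96318266 for Hoxb4 and chr11:96281655-96281904 for Hoxb8, both on the plus strand. Capitals mark CACCT or its complement AGGTG, the letters read by each zinc finger cluster of ZEB1, and TTTATG or its complement CATAAA, letters found in sites of Cdx factors.
Hoxb4: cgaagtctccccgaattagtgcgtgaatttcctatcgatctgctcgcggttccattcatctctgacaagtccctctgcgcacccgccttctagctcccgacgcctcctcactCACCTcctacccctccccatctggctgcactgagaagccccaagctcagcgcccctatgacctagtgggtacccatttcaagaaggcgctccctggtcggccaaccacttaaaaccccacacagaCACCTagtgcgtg
Hoxb8: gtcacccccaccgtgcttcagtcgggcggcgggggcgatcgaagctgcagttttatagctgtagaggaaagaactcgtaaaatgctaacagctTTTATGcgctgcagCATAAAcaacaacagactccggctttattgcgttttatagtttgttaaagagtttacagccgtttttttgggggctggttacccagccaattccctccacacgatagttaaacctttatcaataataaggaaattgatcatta
The Hoxb4 window held CACCT 138 and 13 bases before the start and no TTTATG. The Hoxb8 window held no CACCT and 2 matches to TTTATG, 1 on each strand.

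Promoter windows were matched for 22 of the 39 Hox genes, which gave 24 windows, and for 5 of the 11 genes past the threshold, the others being Hoxa3, Hoxa7 and Hoxa10. Searched on both strands, CACCT was in 7 of the 24 windows (29.2%), beside 46.0% of all 32851 promoter windows of the same length. The longer CAGGTG, which contains AGGTG, was in 0 of 24, beside 17.2% of all windows, and TTTATG was in 5 of 24 (20.8%), beside 10.8%. Genes under the filter had matches as well, with CACCT before Hoxa11, Hoxd3, Hoxd9 and Hoxd11 and TTTATG before Hoxd3, Hoxd4 and Hoxd11. The matches describe letters in the windows and are not sites of binding, which was not measured. The match before Hoxa3 and that before the inner start of Hoxa10, both genes that rose, are shown with the bases around them on the minus strand. The outer start of Hoxa10 had none, and all 250 bases of the Hoxa3 window are exon sequence in GENCODE M21, where this gene begins farther upstream. The bases shown are from chr6:52213189-52213217 and chr6:52235128-52235156.
Hoxa3: cgttgtcgctggAGGTGgagcgcgtccag
Hoxa10: cctttgagccatAGGTGtcaggcgtgcgt
The Hoxa7 window, also of a gene that rose, held no CACCT and 2 matches to TTTATG, and 78 of its bases are exon sequence in GENCODE M21.

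The Hoxa cluster spans 105.5 kb of chromosome 6 (52155367 to 52260880, minus strand). Hoxa7, at 52215624 to 52218573, rose about as much as Hoxc6 did. It was at 0.177, 0.0510 and 0.0482 CPM in 393P_vector samples, from 10, 3 and 4 counts, and at 0.729, 0.702 and 0.803 CPM in 393P_ZEB1 samples, from 39, 39 and 49 counts. The 393P_vector samples were thus at or near the detection floor, and all 393P_ZEB1 samples were above them. The log2 fold change was 3.06 (SE 0.45, edgeR adjusted p = 0.00143), and 3.87 without 393P_vector replicate 1, whose 10 counts were the highest of its group. Hoxa7 passed the filter only through its level in 393P_ZEB1 cells and had to differ, so these values are a description.

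Hoxa10, which acts in uterine, limb and blood development, was at 1.17, 1.33 and 1.60 CPM in 393P_vector samples and 2.67, 3.38 and 3.13 CPM in 393P_ZEB1 samples. The groups were separate, and the log2 fold change was 1.16 (SE 0.20, edgeR adjusted p = 0.00301). Hoxa3, needed for thymus and parathyroid formation, was at 0.689, 0.748 and 0.831 CPM in 393P_vector samples and 1.38, 1.39 and 1.41 CPM in 393P_ZEB1 samples. The latter were almost equal to each other and above all of the former, with a log2 fold change of 0.88 (SE 0.20, edgeR adjusted p = 0.0099). Exons of Hoxa3 and Hoxa7 overlap antisense transcripts in GENCODE M21, and those of Hoxb3 and Hoxb5 do so as well. The strand setting of the counting is not given in the sources used here. Reads from the 2 strands therefore cannot be told apart for these genes. Hoxa2 and Hoxa3 also share exon bases with Gm28308 on their own strand.

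The remaining tested Hoxa genes had overlapping groups and did not pass the test. Hoxa5, the gene of lung development named above, was at 1.04, 1.17 and 0.819 CPM in 393P_vector samples and 0.598, 1.15 and 1.05 CPM in 393P_ZEB1 samples, a log2 fold change of -0.11 (SE 0.30, edgeR adjusted p = 0.803). The values of the 2 groups were interleaved. The log2 fold changes of Hoxa2 and Hoxa6 were 0.39 (SE 0.32) and -0.17 (SE 0.34), at mean levels between 0.231 and 0.834 CPM. Hoxa4, Hoxa9, Hoxa11 and Hoxa13 had at most 10 counts in any sample.

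The Hoxc cluster (chromosome 15, 102921131 to 103036852, plus strand, 115.7 kb) was at a low level in 393P_vector cells, with a sum of 0.922 ± 0.125 CPM (SD, n = 3) over its 9 genes. Hoxc6, at 103009562 to 103011881, is a central homeodomain gene with raised expression in several carcinomas. It was at 0.406, 0.238 and 0.470 CPM in 393P_vector samples, from 14 to 39 counts, and at 3.16, 2.99 and 3.15 CPM in 393P_ZEB1 samples, from 166 to 192 counts. The groups were far apart, with a log2 fold change of 3.04 (SE 0.26, edgeR adjusted p = 8.66e-05), or 8.21-fold. Hoxc9, a posterior gene studied in neuronal differentiation, was at 0.247, 0.136 and 0.144 CPM in 393P_vector samples and 0.935, 0.810 and 0.803 CPM in 393P_ZEB1 samples. Each 393P_ZEB1 sample had more than every 393P_vector sample, 45 to 50 counts against 8 to 14. The log2 fold change was 2.28 (SE 0.30, edgeR adjusted p = 0.000787). Hoxc9 passed the filter only through its level in 393P_ZEB1 cells and had to differ, so these values are a description.

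The other 7 Hoxc genes were under the filter, with at most 28 counts. Among them Hoxc5, which directly neighbors Hoxc6, had 3, 4 and 4 counts in 393P_vector samples and 8, 21 and 28 counts in 393P_ZEB1 samples. The groups did not overlap, and when every gene was tested without the filter the log2 fold change was 2.53 (adjusted p = 0.00508 by edgeR). Hoxc8, between Hoxc6 and Hoxc9, had 4 to 9 counts in 393P_vector samples and 7 to 14 in 393P_ZEB1 samples, so that this gene stayed under the filter while the genes on either side of it rose. Hoxc4 had 22 counts in 393P_ZEB1 replicate 1 and at most 8 in each of the other samples. Hoxc10 to Hoxc13, at the posterior end, had 0 to 6 counts.

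The Hoxd cluster (chromosome 2, 74668310 to 74765142, plus strand, 96.83 kb) had no gene past the filter. Its 9 genes, of which the posterior ones pattern the limb and the genital tubercle, had 0 to 16 counts in any sample. Hoxd12 had the highest count, with 7, 13 and 16 counts in 393P_vector samples and 7, 5 and 8 counts in 393P_ZEB1 samples, and Hoxd8 had at most 1 count. Tested without the filter, none of the 9 passed, with adjusted p of 0.198 or more by edgeR, although the groups were separate for Hoxd4, with 6 counts in each 393P_vector sample and 2 or 3 in each 393P_ZEB1 sample. They were also separate in CPM for Hoxd11, at 0 to 6 and 5 to 7 counts, and for Hoxd3. The raw counts of Hoxd3, 1 in each 393P_vector sample and 1 or 2 in 393P_ZEB1 samples, overlapped and were under the 3 treated as detected. Its groups were thus set apart only by the scaling of the libraries. Groups were separate for 52.8% of all genes tested.

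**Figure D2:**
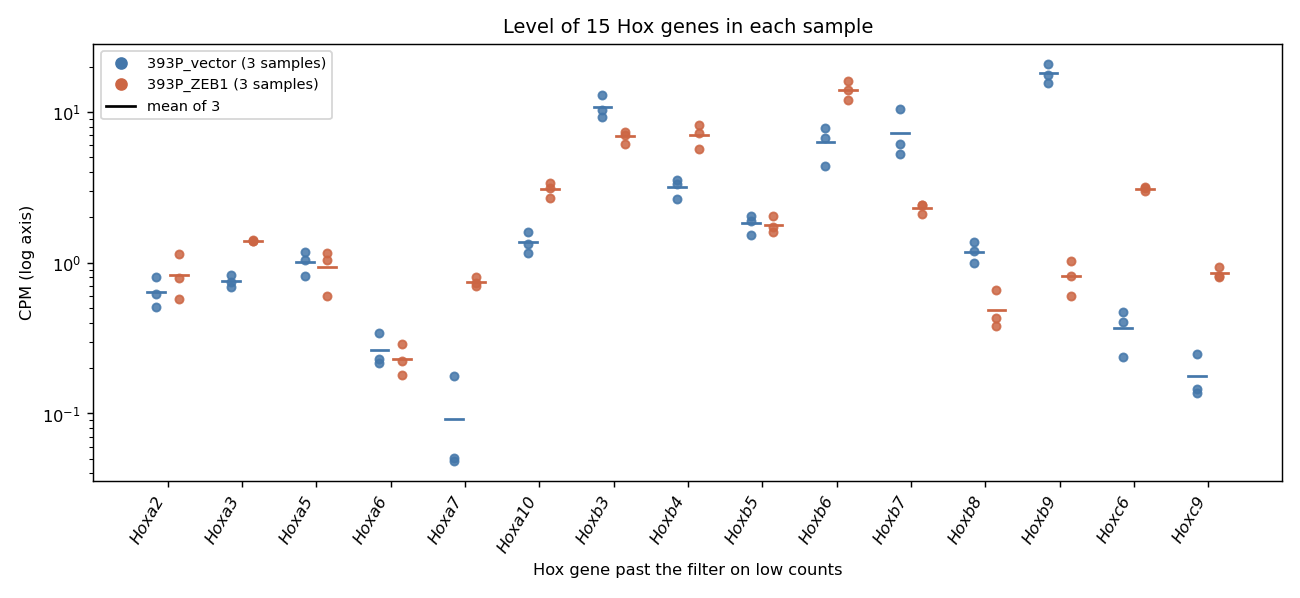
CPM (vertical log axis) of 15 of the 16 Hox genes past the filter in each of 6 samples, with a point for each sample and a line for the mean of 3. Hoxb9 runs from 15.6 to 20.8 CPM in 393P_vector samples and from 0.598 to 1.03 CPM in 393P_ZEB1 samples, whereas the points of Hoxa2, Hoxa5, Hoxa6 and Hoxb5 overlap.

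Because CPM depends on the length of a gene, the order of levels was read from CPM per kb of exon. In 393P_vector cells the first was Hoxb9 with 6.67 ± 0.979 (SD, n = 3), followed by Hoxb7 with 5.71 ± 2.17 (SD, n = 3) and Hoxb6 with 4.77 ± 1.34 (SD, n = 3). Each of these neighbors in the order differed by less than the larger of their SDs, whereas Hoxb3 came next with 2.91 ± 0.504 (SD, n = 3). In 393P_ZEB1 cells Hoxb6 led with 10.6 ± 1.52 (SD, n = 3), ahead of Hoxb4 with 2.75 ± 0.495 (SD, n = 3). Hoxc6, Hoxb3 and Hoxb7 followed at 1.95 ± 0.0595, 1.85 ± 0.175 and 1.83 ± 0.143 (SD, n = 3), and these 3 were not apart beyond their spread. Hoxb9 moved from rank 1 to rank 15 of the 39 genes, and Hoxc6 from rank 14 to rank 3.

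The summed level of each cluster follows from its leading genes and is given without a test. Hoxb summed to 43.4, 48.8 and 54.3 CPM in 393P_vector samples and to 33.1, 32.4 and 35.4 CPM in 393P_ZEB1 samples. Hoxa went from 5.80 to 6.58 CPM in the first group to 8.62 to 9.43 CPM in the second, and Hoxc from 0.816 to 1.06 CPM to 4.55 to 4.97 CPM. These 3 sums did not overlap between the groups, whereas those of Hoxd, 0.442 to 0.493 and 0.491 to 0.612 CPM, did. Hoxb thus supplied 85.4% to 87.3% of all Hox CPM in 393P_vector samples and 69.2% to 70.5% in 393P_ZEB1 samples.

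Hoxb9 alone was 30.7% to 33.5% of all Hox CPM in 393P_vector samples and 1.27% to 2.19% in 393P_ZEB1 samples. The share of Hoxb6 was 7.01% to 14.02% in the first group and 25.4% to 31.9% in the second. Without Hoxb9, the sum of the other Hoxb genes overlapped between the groups, at 27.8 to 33.5 CPM and 31.4 to 34.5 CPM. For all 39 genes without Hoxb9 the order of the groups was the opposite of that with it, 35.2 to 41.5 CPM in 393P_vector samples and 45.8 to 49.3 CPM in 393P_ZEB1 samples. With Hoxb9 the sums were 50.8 to 62.3 CPM and 46.8 to 50.2 CPM.

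**Figure D3:**
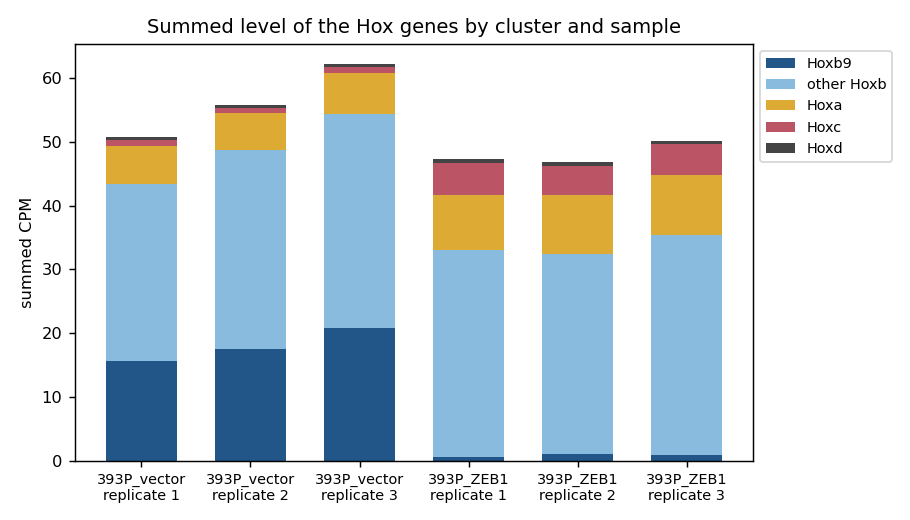
Summed CPM of the Hox genes (vertical axis) in each of the 6 samples, stacked by cluster with Hoxb9 drawn apart from the other Hoxb genes. The Hoxb9 segment shrinks from at least 15.6 CPM in 393P_vector samples to at most 1.03 CPM in 393P_ZEB1 samples, while the Hoxa and Hoxc segments grow.

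Paralogues, which share most of their homeodomain, were then compared across clusters by the log2 ratio of their CPM per kb within each sample, which does not depend on the scaling of the libraries. The 7 pairs of tested genes with the same number covered paralogue groups 3, 5, 6, 7 and 9. The ratio of Hoxb9 to Hoxc9 was 5.33, 6.36 and 6.52 on the log2 scale in 393P_vector samples and -1.30, -0.31 and -0.62 in 393P_ZEB1 samples. The sign of the ratio differed between the groups, so that Hoxb9 was the higher of the pair in every 393P_vector sample and Hoxc9 in every 393P_ZEB1 sample. The mean log2 ratio fell by 6.81. It restates the changes of its 2 genes, and the pair could be formed only because Hoxc9 passed the filter through its level in 393P_ZEB1 cells.

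The ratio of Hoxa7 to Hoxb7 went from -7.14 ± 1.47 (SD, n = 3) to -2.26 ± 0.0878 (SD, n = 3), on the log2 scale. Hoxb7 was the higher gene in all 6 samples, and the first of these means rests on the 3 to 10 counts of Hoxa7. The ratio of Hoxa6 to Hoxc6 went from 0.72 ± 0.869 (SD, n = 3) to -2.58 ± 0.377 (SD, n = 3), a fall of 3.30 with another change of the leading gene. In 6 of the 7 pairs the groups did not overlap, which was so for 52.8% of all single genes. Most pairs hold a gene already past the threshold, 2 rest on Hoxa7 or Hoxc9, and 3 share the genes of paralogue group 6. The 6 pairs had an exact two-sided permutation p of 0.1, the smallest that 3 samples against 3 allow, and 0.117 after Benjamini-Hochberg adjustment over the 7 pairs, so that no pair could pass 0.05. In the seventh, Hoxa5 and Hoxb5, neither of which passed the test, the groups overlapped (exact permutation p = 0.9).

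**Figure D4:**
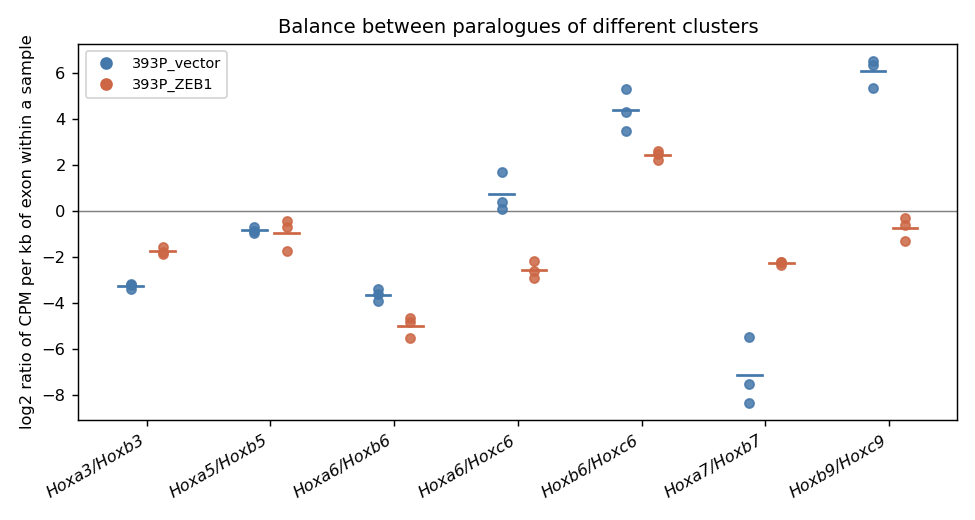
Log2 ratio of CPM per kb of exon between paralogues of different clusters (vertical axis) for each of 7 pairs (horizontal axis), with a point for each sample and a line for the mean of 3. The points of Hoxb9/Hoxc9 lie at 5.33 to 6.52 in 393P_vector samples and at -1.30 to -0.31 in 393P_ZEB1 samples.

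Other features within the clusters were looked at by coordinate. Between the ends of the 4 clusters lay 12 listed features that are no members, and 2 of them passed the filter. Mira, a noncoding RNA at 52214492 to 52215288 beside Hoxa7 and on the same strand, had 6, 4 and 2 counts in 393P_vector samples and 45, 59 and 44 counts in 393P_ZEB1 samples. Like Hoxa7, it passed the filter only through its level in 393P_ZEB1 cells and had to differ, with a log2 fold change of 3.78 (SE 0.44, edgeR adjusted p = 0.000425), and it lies within the longer span that GENCODE M21 gives Hoxa7. Mir10a, the miR-10a hairpin near Hoxb4, had 19 to 49 counts and a log2 fold change of 0.37 (adjusted p = 0.49 by edgeR). Hotair, the antisense RNA of the Hoxc cluster, had 1 to 6 counts in any sample.

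Of the 24 nearest coding genes outside the clusters, 3 on each side, 20 were tested, and 2 rose, 4 fell and 14 did not pass, so that 6 of 20 passed beside 37.6% of all genes. Beside Hoxa, Skap2 and Snx10 rose by 0.50 on the log2 scale each (adjusted p of 0.0353 and 0.0158 by edgeR), and Evx1, the homeobox gene next to Hoxa13, had 1 to 6 counts. Beside Hoxb, Atp5g1, a subunit of the mitochondrial ATP synthase, fell by 0.52 on the log2 scale (adjusted p = 0.022 by edgeR). Beside Hoxc, Smug1, a DNA glycosylase, fell by 1.16 on the log2 scale (adjusted p = 0.000531 by edgeR), and Cbx5 and Atf7 fell by 0.68 and 0.52. These are 3 of 6 neighbors, on a chromosome where 37.4% of the other genes fell. Calcoco1, also beside Hoxc, had a log2 fold change of 0.70 with separate groups but did not pass (adjusted p = 0.0533 by edgeR), and no neighbor of Hoxd passed.

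The proteins that Hox factors bind DNA with, and genes known to act on Hox transcription, were examined as lists. TALE homeodomain proteins, the Pbx, Meis and Pknox families, are the common Hox cofactors, and of 7 tested genes 2 rose, 2 fell and 3 did not pass, so that 4 of 7 passed beside 37.6% of all genes. For Meis1, a partner of posterior Hox factors in leukemia, the mean CPM was 5.98 ± 0.984 (SD, n = 3) with the empty vector and 15.8 ± 1.47 (SD, n = 3) with ZEB1, which is a rise by 1.40 on the log2 scale (adjusted p = 0.00043 by edgeR). Meis2 rose by 1.01 on the log2 scale, and Pbx2 and Pknox1 fell by 0.57 and 0.44. The median over these genes was 0.40.

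Cdx factors activate central and posterior Hox genes in the embryo. Cdx2, the intestinal member, had 2361, 2622 and 1976 counts in 393P_vector samples and 8099, 7375 and 8290 in 393P_ZEB1 samples. It was higher in each of the latter, with a log2 fold change of 1.93 (SE 0.23, edgeR adjusted p = 0.000465). It was the only 1 of 9 ParaHox and cluster-end homeobox genes, such as Cdx1, Cdx4, Pdx1, Evx2 and Mnx1, to pass the filter, and the other 8 had at most 11 counts.

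Retinoic acid is an inducer of anterior Hox genes, and of 12 tested genes of its pathway 5 rose and 3 fell, beside 18.3% and 19.3% of all genes. Of the enzymes that make it, Aldh1a3 and Aldh1a1 rose by 4.91 and 3.09 on the log2 scale (adjusted p of 6.22e-07 and 1.19e-06 by edgeR), while Rdh10, which supplies retinaldehyde, fell by 1.68. The retinaldehyde reductase Dhrs3 rose by 2.16. Among the receptors Rarb, itself a target of the pathway, which passed the filter only through its level in 393P_ZEB1 cells, rose by 3.30 and Rara by 0.57, while Rarg fell by 0.46, and the degrading enzyme Cyp26b1 fell by 1.05. The median over these genes was 0.54.

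Trithorax and Polycomb proteins keep Hox genes on or off. Of 13 trithorax and related genes 1 rose, Psip1, by 0.47 on the log2 scale (adjusted p = 0.0148 by edgeR), and none fell. Kmt2a was not analysed here. Of 19 Polycomb genes 2 rose, Ezh1 by 0.48 and Rbbp4 by 0.34, and 2 fell, Cbx7 by 1.5 and Phf19 by 0.94. The log2 fold changes of the core genes Ezh2, Eed and Suz12 were -0.23, -0.25 and 0.48, and none of the 3 passed the test. The medians of the lists were -0.08 and 0.27, and the shares that passed, 1 of 13 and 4 of 19, were below the 37.6% of all genes.

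**Figure D5:**
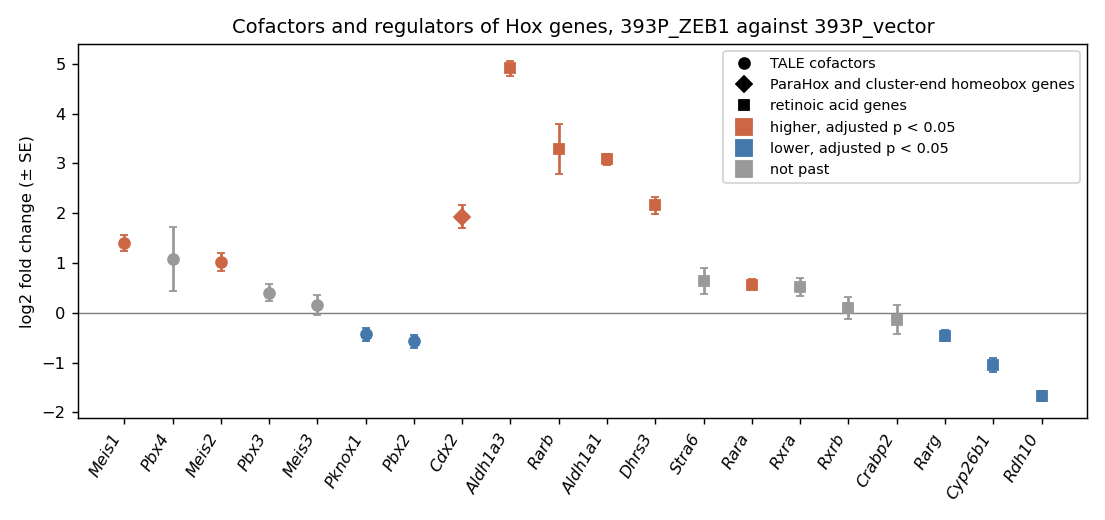
Log2 fold change with its standard error (vertical axis) of the tested TALE cofactors, of Cdx2 and of the retinoic acid genes (horizontal axis), colored by the call. The values run from -1.68 for Rdh10 to 4.91 for Aldh1a3, and Cdx2 stands at 1.93.

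Markers of cell state and of other cell types were also examined, and they did not all differ between the groups. Of 7 epithelial markers 6 fell, such as Cdh1 by 4.09 and Epcam by 6.53 on the log2 scale, beside 19.3% of all genes. The log2 fold changes of the 7 ran from -8.397 to -0.39, with Krt8 at -0.61 and Krt18 at -0.77. Krt19, at -0.39, did not pass the test. The 5 mesenchymal markers, Vim, Fn1, Cdh2, Zeb2 and Twist1, all rose, beside 18.3% of all genes. Their log2 fold changes ran from 0.41 for Vim to 2.21 for Twist1. Of 4 tested fibroblast markers, which matter here because fibroblasts express many Hox genes, Col3a1 rose by 3.75, from at most 10 counts in any 393P_vector sample, and Pdgfra fell by 2.01. Their summed level was 2.23 to 3.06 CPM in 393P_vector samples and 2.36 to 3.05 CPM in 393P_ZEB1 samples, and Dcn and Lum had at most 4 counts. Leukocyte markers summed to 1.38 to 3.53 and 1.17 to 1.44 CPM, and endothelial markers to 2.23 to 2.37 and 0.486 to 0.770 CPM, and among the latter Kdr fell by 2.51 on the log2 scale. The part of these changes in the Hox values was not tested, and fewer cells of a type cannot be told apart from less RNA per cell in bulk samples.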

How the data were processed

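RNA sequencing of total RNA (SOLiD total RNA kit) covered 3 samples each of 393P_vector and 393P_ZEB1 cells, grouped by their labels. For each sample the authors deposited the raw count of reads per RefSeq feature with its GRCm38 coordinates and exon length, and an RPKM computed from it. The RPKM implied totals of 99.1% to 99.32% of the summed counts, and it was not used further. The aligner, the counting program and its strand setting are not given in the sources used here.

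Counts were compared in R 4.3.3 with edgeR 4.0.16: filterByExpr with its minimum count of 10 (0.17 CPM), TMM, a robust quasi-likelihood fit without a replicate block, and Benjamini-Hochberg adjustment over all 13892 genes kept, at 0.05. CPM per kb is CPM divided by the deposited exon length. SDs and exact permutation tests were over samples. Procedures were tested on simulated data.

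The alternatives were DESeq2 size factors, the DESeq2 1.42.0 Wald test, limma 3.58.1 voom with sample weights, other count filters, the replicate block, leaving out each sample, a threshold of 0.01, changes less the chromosome median, and members that overlap no other feature. Exon overlaps came from GENCODE M21, and promoter windows from RefSeq (GRCm38.p6). Python 3.11.15 and matplotlib 3.10.9 were used. Genes are named by rule: every Hox gene, Zeb1, the listed cofactor, regulator and marker genes, and features inside or next to a cluster. The values of some genes, 1 tested Hox gene among them, are not reported here, and list counts leave out those of the lists. The members and lists were chosen with earlier results of these data known, and the promoter motifs and paralogue ratios after the Hox values had been seen.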

Additional observations from a re-analysis of the deposited data

How the results depend on the processing

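The 11 Hox genes past the threshold kept their direction under every alternative in which they were tested, and 10 of them stayed past it. Hoxb3 was the exception, as given above. DESeq2 size factors, the DESeq2 Wald test and voom each gave 7 Hox genes higher and 4 lower. Without the filter on low counts the numbers were 8 and 5, with Hoxc5 and Hoxb13 added, and with at least 10 counts in every sample, where 14 Hox genes were tested, 5 and 4. A threshold of 0.01 gave 7 and 3, and leaving out 1 sample gave 7 to 8 and 3 to 4. Over all genes, voom called 3971 higher and 4100 lower, against 2539 and 2679, and 1784 were lower without 393P_ZEB1 replicate 3.

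Cluster medians rest on few genes and moved more. That of Hoxa was 0.12 with voom, 0.13 with at least 10 counts in every sample, 0.75 less the chromosome median and 0.77 for members that overlap no other feature, and 0.13 to 0.60 when 1 sample was left out. That of Hoxb was -0.34 without the filter and -0.92 less the chromosome median. That of Hoxc, over 2 genes in the main fit, was 3.00 less the chromosome median and 1.15 without the filter, where all 9 genes entered. With at least 10 counts in every sample it was 3.02, the value of Hoxc6 alone. Hoxc9 was left out there, with 8 counts in 393P_vector replicate 2. Among the genes given here that did not pass the test, Hoxa5, Hoxa6 and Hoxb5 changed sign under some alternatives, whereas Hoxa2 stayed positive. Hoxa5 and Hoxa6 were at 0.26 and 0.19 less the chromosome median. When 1 sample was left out, Hoxa5 ranged from -0.28 to 0.13, Hoxa6 from -0.36 to 0.051 and Hoxb5 from -0.14 to 0.069. The cause was not tested.

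Samples with equal replicate numbers correlated in their deviations from the group means at 0.205, -0.134 and -0.0286. Of 3 393P_vector samples, 1 correlated best with its own number. These values are too few to tell whether the numbers pair the samples. The replicate block gave 7 Hox genes higher and 4 lower, and 2180 and 2256 over all genes. The filter left out 23 Hox genes, which had at most 28 counts in a sample.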
